A study of Mus musculus with 18 samples.

Results

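The 10 genes described here make, use or phosphorylate the coenzyme NAD or move its electrons between cytosol and mitochondria: Cd38, Nampt, Nmnat1, Nmnat3, Nadk, Nnt, Got1, Got2, Mdh1 and Ldhb. They were selected by gene name from a deposited table of 54532 mouse genes, for their roles next to complex I, with earlier results on the FPKM values of the same 18 libraries known. The FPKM values thus bore on which genes were chosen, and counts over them are a description. The 10 names matched 11 rows, because 2 Ensembl genes are called Nnt. FPKM are fragments per kilobase of exon, divided by a total per library. How that total was set is not stated in the sources used here. Of the 10 genes, 9 had a mean of at least 1 FPKM and were tested.

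Polyadenylated RNA was sequenced from the mouse cell line KPCA.B, whose labelled type is high-grade serous ovarian cancer. Its cells expressed a hairpin RNA against Ndufa5, an accessory subunit of respiratory complex I (shNdufa5_1 or shNdufa5_2, labelled Ndufa5 knockdown 1 and 2), or a control hairpin (shControl, labelled Ndufa5 wild type). Each was kept in SCM, medium taken from cells made senescent with cisplatin, or in PCM, medium from proliferating cells given DMF as a control, in both cases mixed 1:1 with unconditioned DMEM (high glucose, serum, EGF and the supplement ITS-G). Hairpin and medium gave 6 groups of 3 libraries. No label tells whether the 3 libraries of a group were separate cultures. The p-values then reflect the spread between these libraries alone, and that spread may be technical.

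NAD accepts electrons from glycolysis and from the TCA cycle, and complex I returns the resulting NADH to NAD in mitochondria. NADH cannot cross the inner mitochondrial membrane, so the malate-aspartate shuttle carries its electrons inward through paired cytosolic and mitochondrial dehydrogenases and aminotransferases, while lactate dehydrogenase reoxidises it in the cytosol. The NAD pool itself is kept up mainly by salvage of nicotinamide and is drained by glycohydrolases, sirtuins and poly(ADP-ribose) polymerases.

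The depth recovered from the steps of the FPKM values was 13.8 to 38.9 M fragments per library, and the deepest library of each medium was shControl replicate 2. The total that scaled the FPKM values differed from this depth. In shControl replicate 2 that total was 35.2 M in PCM and 33.7 M in SCM, against 33.8 M and 38.9 M fragments recovered. Ndufa5 stood at 6.23 to 6.85 FPKM in the 6 shNdufa5_1 libraries, at 14.6 to 20.2 FPKM in the 6 libraries labelled shNdufa5_2, and at 15.2 to 26.2 FPKM in the 6 shControl libraries. Its mean was 34.6% of shControl in PCM and 28.1% in SCM with shNdufa5_1, but 93.4% and 73.4% in the libraries labelled shNdufa5_2, so this group is called "the libraries labelled shNdufa5_2". In SCM their Ndufa5 lay at 14.6 to 20.2 FPKM, all below shControl at 20.9 to 26.2 FPKM. That log2 difference was -0.43 ± 0.12 (SE, limma adjusted p = 0.0125). In PCM they had 16.8 to 18.7 FPKM and overlapped with shControl at 15.2 to 22.1 FPKM (-0.08, limma adjusted p = 0.647). Of 12 markers of ovarian carcinoma epithelium, Krt7, Krt8, Krt18, Krt19, Msln and Pax8 were expressed, whereas Epcam, Cldn4, Mecom, Muc16 and Wt1 stayed below 1 FPKM in every library. Cdh1 had a mean below 1 FPKM, but was not below 1 FPKM in every library. The summed level of the 12 moved with the groups. In PCM it was 1694 to 1736 FPKM with shNdufa5_1 and 1197 to 1219 FPKM in the libraries labelled shNdufa5_2, against 1049 to 1118 FPKM in shControl. In SCM it was 1997 to 2061 FPKM with shNdufa5_1 and 1199 to 1270 FPKM in the libraries labelled shNdufa5_2, against 1618 to 1727 FPKM in shControl. Of 14 immune markers 13 were below 1 FPKM in every library and 5 of these were at 0. Means of at least 1 FPKM were reached by 3 of 9 fibroblast markers and 1 of 6 endothelial markers. The endothelial marker was Plvap, at a mean of 5.77 FPKM, so the endothelial sums below are mostly that gene. The summed fibroblast markers in SCM were 3.94 to 4.51 FPKM with shNdufa5_1 and 6.82 to 8.15 FPKM in the libraries labelled shNdufa5_2, against 5.755 to 6.405 FPKM in shControl. In PCM they were 2.51 to 3.80 FPKM with shNdufa5_1 and 4.66 to 5.82 FPKM in the libraries labelled shNdufa5_2, against 3.52 to 4.37 FPKM in shControl. The summed endothelial markers in SCM were 4.38 to 5.78 FPKM with shNdufa5_1 and 8.03 to 10.5 FPKM in the libraries labelled shNdufa5_2, against 5.67 to 8.48 FPKM in shControl. In PCM they were 2.25 to 2.70 FPKM with shNdufa5_1 and 6.90 to 7.47 FPKM in the libraries labelled shNdufa5_2, against 3.56 to 4.49 FPKM in shControl. These sums thus moved with hairpin and medium, and their part in the results below was not tested.

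FPKM is scaled per length, so levels can be set side by side between genes. Over the 18 libraries the mean level was 154.6 FPKM for Got1, 71.5 for Got2, 69.6 for Nadk and 43.1 for Mdh1. Ldhb averaged 16.5 and Nampt 14.4 FPKM. Nmnat3 at 2.71, Nmnat1 at 2.14 and Cd38 at 1.94 FPKM were near the lower limit of the tested genes, and Nnt averaged 0.0306 FPKM. The 3 low genes rest on few fragments, with 49 to 236 per library for Cd38, 57 to 238 for Nmnat1 and 150 to 710 for Nmnat3, against 4337 to 16036 for Got1.

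**Figure D1:**
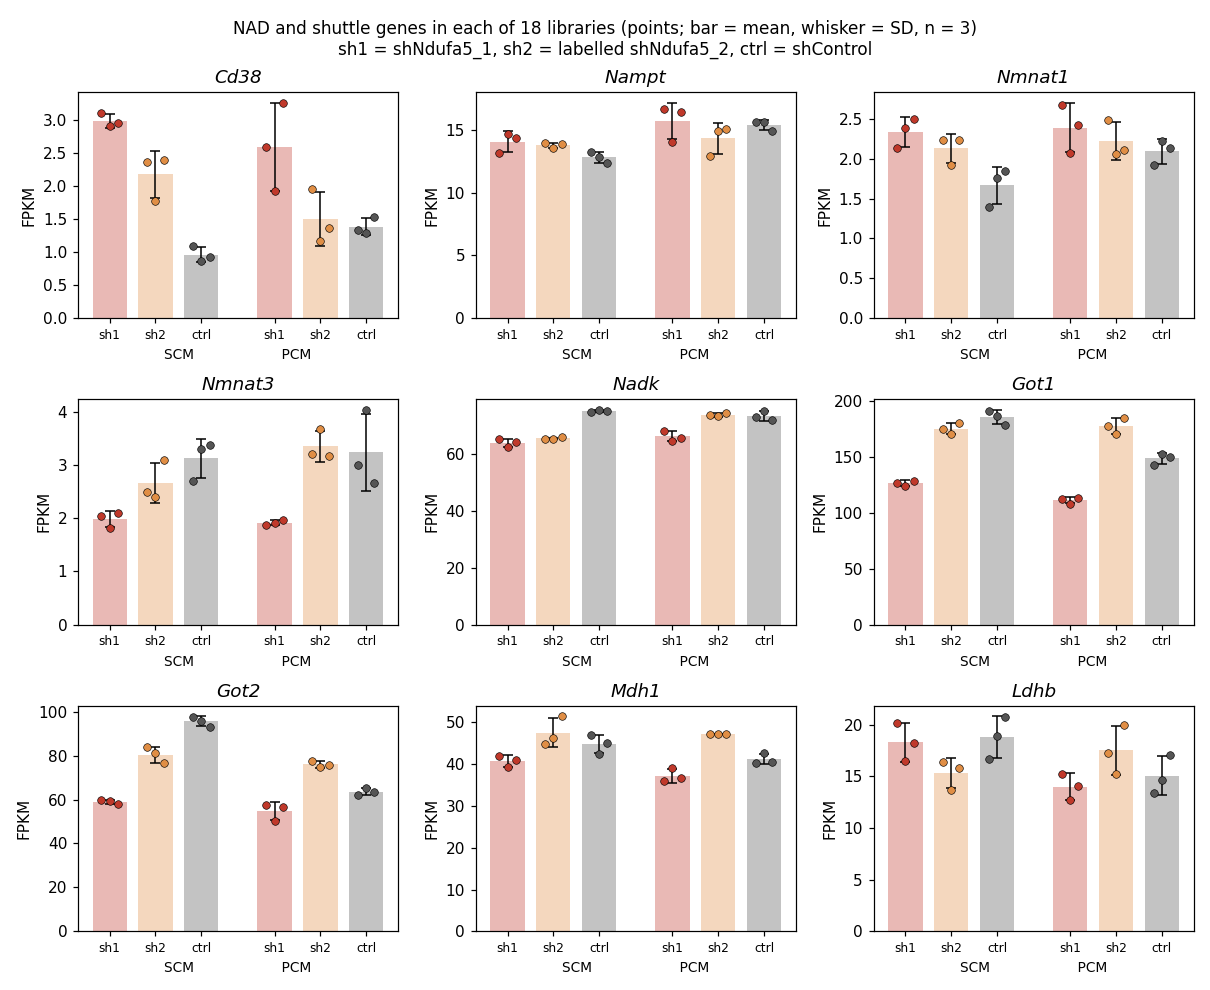
FPKM (y axis, from 0) of the 9 tested genes in every library, with shNdufa5_1 (sh1), the libraries labelled shNdufa5_2 (sh2) and shControl (ctrl) in SCM and in PCM; points are libraries, bars means and whiskers the SD of 3 libraries. Cd38 stands at 2.91 to 3.11 FPKM with shNdufa5_1 in SCM, above shControl at 0.869 to 1.09 FPKM, while Nmnat3, Got1 and Got2 are lower with shNdufa5_1 than with shControl in both media.

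Cd38, a NAD glycohydrolase that also makes cyclic ADP-ribose, rose with shNdufa5_1 in both media. Its gene, ENSMUSG00000029084, occupies 43868553 to 43912375 of chromosome 5 (GRCm38, plus strand) and has exons of 3890 bp. In PCM its level was 2.59, 1.92 and 3.26 FPKM in the shNdufa5_1 libraries, against 1.34, 1.29 and 1.53 FPKM in shControl. The groups did not overlap, although the shNdufa5_1 libraries were widely spread. In SCM it was 3.11, 2.91 and 2.96 FPKM with shNdufa5_1, against 1.09, 0.869 and 0.927 FPKM in shControl. Here the shNdufa5_1 libraries lay close together and far above the control. The means were 1.87 times shControl in PCM (2.59 ± 0.668 against 1.39 ± 0.129 FPKM, SD, n = 3 each) and 3.11 times in SCM (2.99 ± 0.104 against 0.962 ± 0.115 FPKM).

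On the scale of log2(FPKM + 1), which understates the change of low genes, Cd38 rose by 0.58 ± 0.14 (SE) in PCM (limma adjusted p = 0.00216) and by 1.03 ± 0.14 in SCM (limma adjusted p = 8.51e-06). Fitted on whole fragments recovered from the same table, the log2 differences were 0.90 and 1.68. Both directions and both calls held in all 27 alternative settings. In bulk RNA, more cells that express a gene and more of its RNA per cell cannot be told apart. Cd38 is also a gene of immune cells. The summed level of the 14 immune markers was 1.03 to 2.17 FPKM with shNdufa5_1 in SCM, against 5.92 to 7.07 FPKM in shControl, and 1.14 to 2.17 FPKM with shNdufa5_1 in PCM, against 2.03 to 2.31 FPKM in shControl. Cd68 was the only marker of the list above 1 FPKM, so these sums are mostly that gene. Ptprc, the pan-leukocyte marker, was at 0 in all 6 of these libraries in SCM. The part of such cells in the level of Cd38 was not tested.

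The libraries labelled shNdufa5_2 had Cd38 at 2.36, 1.77 and 2.40 FPKM in SCM, all above the 0.869 to 1.09 FPKM of shControl, a log2 difference of 0.69 ± 0.14 (limma adjusted p = 0.0012). The summed immune markers were 7.495 to 10.7 FPKM there, against 5.92 to 7.07 FPKM in shControl. In PCM Cd38 stood at 1.96, 1.17 and 1.37 FPKM in these libraries and overlapped with shControl at 1.29 to 1.53 FPKM. That difference was 0.06 (95% interval -0.23 to 0.35, limma adjusted p = 0.781), and it was -0.07 without replicate 1 and -0.16 with equal FPKM sums. The summed immune markers in PCM were 6.18 to 8.81 FPKM in these libraries, against 2.03 to 2.31 FPKM in shControl, and their part in either difference was not tested. Ordered by mean, Cd38 ran from shNdufa5_1 in SCM (2.99 FPKM) and in PCM (2.59) through the libraries labelled shNdufa5_2 in SCM (2.18) and in PCM (1.5) to shControl in PCM (1.39) and in SCM (0.962). Among these neighbours the ranges failed to overlap for 1 pair, shControl in PCM and in SCM. Bst1, the paralogue that shares the glycohydrolase activity, stood at 0 to 0.513 FPKM over the libraries and was not tested.

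The 3 genes of NAD synthesis went different ways with shNdufa5_1. Nmnat3, the mitochondrial adenylyltransferase that joins nicotinamide mononucleotide to ATP, fell in both media. ENSMUSG00000032456 spans 98287435 to 98420438 on chromosome 9 (plus strand). In PCM its level was 1.87, 1.90 and 1.96 FPKM with shNdufa5_1, against 3.01, 4.04 and 2.66 FPKM in shControl. In SCM it was 2.05, 1.81 and 2.09 FPKM with shNdufa5_1, against 2.71, 3.29 and 3.37 FPKM in shControl. All 6 shNdufa5_1 libraries lay below all 6 of shControl. The log2 differences were -0.53 ± 0.11 in PCM (limma adjusted p = 0.000829) and -0.46 ± 0.11 in SCM (limma adjusted p = 0.00183), and the direction held in all 27 alternatives in each medium. With libraries scaled to equal FPKM sums the difference in SCM was -0.16 (adjusted p = 0.25). In the libraries labelled shNdufa5_2, Nmnat3 stood at 3.16 to 3.68 FPKM in PCM and 2.40 to 3.09 FPKM in SCM, overlapping with shControl in both media (limma adjusted p = 0.764 and 0.25).

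Nmnat1, the nuclear enzyme of the same reaction, rose with shNdufa5_1 in SCM, where it had 2.14, 2.38 and 2.50 FPKM against 1.40, 1.76 and 1.84 FPKM in shControl. ENSMUSG00000028992 spans 149467572 to 149485202 on chromosome 4 (minus strand). The groups did not overlap, and the log2 difference was 0.33 ± 0.09 (limma adjusted p = 0.00685). In PCM the shNdufa5_1 libraries had 2.68, 2.07 and 2.43 FPKM and overlapped with shControl at 1.92, 2.23 and 2.14 FPKM, a difference of 0.13 (95% interval -0.07 to 0.33, limma adjusted p = 0.265). The libraries labelled shNdufa5_2 had 1.92 to 2.24 FPKM in SCM, above shControl in every library, but the test did not pass (limma adjusted p = 0.0654).

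Nampt, the rate-limiting enzyme of nicotinamide salvage, was called with neither hairpin in either medium on the deposited scale. ENSMUSG00000020572 spans 32819545 to 32853349 on chromosome 12 (plus strand). It had 14.1 to 16.7 FPKM with shNdufa5_1 and 12.9 to 15.1 FPKM in the libraries labelled shNdufa5_2 in PCM, overlapping with shControl at 14.9 to 15.6 FPKM. In SCM it had 13.1 to 14.7 FPKM with shNdufa5_1 and 13.5 to 14.0 FPKM in the libraries labelled shNdufa5_2, against 12.4 to 13.2 FPKM in shControl, which the libraries labelled shNdufa5_2 did not overlap. The 4 limma adjusted p-values lay between 0.117 and 0.767. For shNdufa5_1 in SCM the difference of 0.12 (95% interval -0.02 to 0.26) passed at 0.30 with equal fragment totals (adjusted p = 0.00116), 0.51 with equal FPKM sums and 0.17 with quantile normalization, and was -0.08 with trends of GC content and length removed. The median of all genes tested in that contrast was 0.15 with equal fragment totals and 0.34 with equal FPKM sums. Group means of Nampt lay between 12.8 and 15.7 FPKM, a ratio of 1.23 between the highest and the lowest.

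Nadk, the cytosolic kinase that turns NAD into NADP, was lower with shNdufa5_1 by a small amount. ENSMUSG00000029063 spans 155562378 to 155591001 on chromosome 4 (plus strand). In PCM it had 68.1, 64.7 and 65.7 FPKM with shNdufa5_1, against 72.8, 75.2 and 71.8 FPKM in shControl. In SCM it had 65.1, 62.4 and 64.1 FPKM with shNdufa5_1, against 74.6, 75.5 and 74.9 FPKM in shControl. No library overlapped with the other group in either medium. The means were 90.3% and 85.1% of shControl, and the log2 differences -0.15 ± 0.03 (limma adjusted p = 0.000314) and -0.23 ± 0.03 (limma adjusted p = 2.55e-06). The fall in SCM turned into 0.02 with quantile normalization and 0.19 with equal FPKM sums, and was -0.04 (adjusted p = 0.177) with equal fragment totals, whereas the call in PCM held in all 27 alternatives, at -0.06 with trends of GC content and length removed. The median of all genes tested in SCM was 0.34 with equal FPKM sums and 0.15 with equal fragment totals, so Nadk lay below it under both. In the libraries labelled shNdufa5_2 Nadk had 65.4, 65.3 and 65.8 FPKM in SCM, all below shControl, a difference of -0.19 ± 0.03 (limma adjusted p = 7.29e-05) that turned into 0.10 with equal FPKM sums and was -0.04 (adjusted p = 0.3) with quantile normalization. In PCM their 73.3 to 74.5 FPKM overlapped with shControl (limma adjusted p = 0.819).

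Nnt, the transhydrogenase of the inner mitochondrial membrane that makes NADPH from NADH, was almost without fragments. Its first row (ENSMUSG00000025453, minus strand of chromosome 13, 119335448 to 119408997) held 77 fragments over the 18 libraries, at most 15 in a library and none in 6. The other row (ENSMUSG00000116207) was listed at 0 throughout. The 2 annotated genes share 3339 bp of exons, and how shared fragments were counted is not given in the sources used here, so the level of Nnt is uncertain. A count of 0 allows up to 3 fragments, or 0.0121 to 0.033 FPKM in these libraries (counting error only). Of the 18 libraries 11 were at or under this limit. Exact two-sided permutation tests of FPKM gave p = 0.2 to 1 over 9 comparisons, where 3 against 3 libraries can reach 0.1 at the least.

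Got1 and Got2, the cytosolic and mitochondrial aspartate aminotransferases at the 2 ends of the malate-aspartate shuttle, both fell with shNdufa5_1 in both media. Got1 (ENSMUSG00000025190) spans 43499752 to 43524605 on chromosome 19 and Got2 (ENSMUSG00000031672) 95864134 to 95888547 on chromosome 8, both on the minus strand. In PCM Got1 had 112.6, 108.3 and 113.9 FPKM with shNdufa5_1, against 143.3, 153.3 and 150.2 FPKM in shControl. In SCM it had 127.3, 124.3 and 129.1 FPKM with shNdufa5_1, against 191.8, 187.2 and 178.9 FPKM in shControl. The gap between the groups was wider than the range within either of them. The means were 74.95% of shControl in PCM and 68.2% in SCM, with log2 differences of -0.41 ± 0.04 (limma adjusted p = 2.05e-07) and -0.55 ± 0.04 (limma adjusted p = 4.98e-09).

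Got2 had 57.6, 50.3 and 56.8 FPKM with shNdufa5_1 in PCM, against 62.1, 65.1 and 63.6 FPKM in shControl. In SCM it had 59.6, 59.3 and 58.0 FPKM with shNdufa5_1, against 97.7, 95.7 and 93.1 FPKM in shControl. The groups were apart in both media, by far the more so in SCM, where shControl was high. The means were 86.3% and 61.7% of shControl, with log2 differences of -0.21 ± 0.05 (limma adjusted p = 0.00107) and -0.69 ± 0.05 (limma adjusted p = 3.87e-09). Directions held for both genes in all 27 alternatives in each medium. Sizes in SCM did not: with quantile normalization they were -0.16 for Got1 and -0.40 for Got2, and with equal FPKM sums -0.13 (adjusted p = 0.194) and -0.27 (adjusted p = 0.0178). Exons of Got2 share 434 bp with Gm45760 on the other strand, which stayed at or below 0.122 FPKM. The annotation also holds Got1l1, a related coding gene, and Got2-ps1, a processed pseudogene, and how fragments that match both copies were counted is not given in the sources used here.

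In the libraries labelled shNdufa5_2 both genes stood otherwise. In PCM Got1 was higher there, with 178.3, 171.2 and 185.3 FPKM, and so was Got2, with 77.7, 74.7 and 75.5 FPKM, all above shControl. The log2 differences of 0.26 ± 0.04 and 0.25 ± 0.05 (limma adjusted p = 7.5e-05 and 0.000499) turned into -0.10 for both genes with equal FPKM sums, and were 0.04 (adjusted p = 0.545) and 0.12 (adjusted p = 0.0516) with quantile normalization. In SCM Got2 had 83.7, 81.0 and 76.5 FPKM, below shControl, a difference of -0.25 ± 0.05 (limma adjusted p = 0.000755) that became 0.05 with equal FPKM sums and -0.07 (adjusted p = 0.274) with quantile normalization. Got1 overlapped with shControl in SCM at 171.2 to 180.4 FPKM (limma adjusted p = 0.104). Set directly against the libraries labelled shNdufa5_2, those with shNdufa5_1 had less Got1, with log2 differences of -0.67 in PCM and -0.47 in SCM, and less Got2, with -0.46 and -0.44. All 4 of these differences passed (limma adjusted p of 7.81e-07 or less) and held their call in all 26 alternatives.

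Got1 and Got2 were both lower with shNdufa5_1 in both media, and the sequences before their starts are shown, from RefSeq in GRCm38.p6, 5′ to 3′ on the strand of the gene. The first is the 250 bases before the RefSeq start of Got1 (chr19:43524606-43524855, minus strand), and the second the stretch before the outermost annotated exon of Got2 (chr8:95888548-95888651, minus strand). Capitals mark matches to the CCAAT box on either strand.
Got1: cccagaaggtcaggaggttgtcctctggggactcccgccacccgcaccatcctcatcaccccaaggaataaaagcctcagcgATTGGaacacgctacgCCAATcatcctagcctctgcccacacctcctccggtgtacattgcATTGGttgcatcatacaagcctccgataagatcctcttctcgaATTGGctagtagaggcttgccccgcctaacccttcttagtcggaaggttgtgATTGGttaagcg
Got2: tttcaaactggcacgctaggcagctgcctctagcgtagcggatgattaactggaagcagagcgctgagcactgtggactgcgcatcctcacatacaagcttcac
The Got1 window held 5 matches to CCAAT, which 33.8% of 32851 RefSeq promoter windows of 250 bases hold at least once. Neither this window nor the 250 bases before the RefSeq start of Got2 matched the E-box CACGTG, the AP-1 motif TGACTCA, the CRE TGACGTCA, the GC box GGGCGG or the NRF1 motif, and Got2 had no CCAAT either. The 250-base windows held 11 CpG for Got1 and 19 for Got2, against a median of 6. Matches are a description of letters, with nothing measured here on binding.

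Mdh1, the cytosolic malate dehydrogenase that reduces oxaloacetate with NADH, fell slightly with shNdufa5_1. ENSMUSG00000020321 spans 21556787 to 21572367 on chromosome 11 (minus strand). It had 36.0, 39.0 and 36.6 FPKM with shNdufa5_1 in PCM, against 40.4, 42.6 and 40.6 FPKM in shControl. In SCM it had 42.0, 39.3 and 40.9 FPKM with shNdufa5_1, against 46.9, 42.5 and 45.0 FPKM in shControl. The groups did not overlap, but the nearest libraries were close in both media. The log2 differences were -0.14 ± 0.05 in PCM (limma adjusted p = 0.0224) and -0.13 ± 0.05 in SCM (limma adjusted p = 0.029), the value in SCM turning into 0.05 with quantile normalization or equal fragment totals and 0.28 with equal FPKM sums. In SCM the median of all genes tested was 0.15 with equal fragment totals and 0.34 with equal FPKM sums, both above Mdh1. The call in PCM was lost with trends of GC content and length removed (-0.13, adjusted p = 0.0681), without shNdufa5_1 replicate 1 (-0.12, adjusted p = 0.0845) or replicate 3 (-0.13, adjusted p = 0.0664), and without shControl replicate 2 (-0.12, adjusted p = 0.0898). That in SCM was lost without shNdufa5_1 replicate 2 (-0.11, adjusted p = 0.11) or 3 (-0.14, adjusted p = 0.0558), and without shControl replicate 1 (-0.10, adjusted p = 0.124) or 3 (-0.13, adjusted p = 0.0658).

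In the libraries labelled shNdufa5_2, Mdh1 in PCM was 47.1 to 47.3 FPKM, above the 40.4 to 42.6 FPKM of shControl, a log2 difference of 0.19 ± 0.05 (limma adjusted p = 0.00649) that turned into -0.16 with equal FPKM sums and was 0.10 (adjusted p = 0.127) with equal fragment totals. In SCM their 44.9 to 51.4 FPKM overlapped with shControl (limma adjusted p = 0.218). Exons of Mdh1 share 52 bp with Wdpcp on the other strand, which stayed at or below 0.796 FPKM.

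Ldhb, the lactate dehydrogenase subunit that favours the oxidation of lactate, was called with neither hairpin against shControl on the deposited scale. ENSMUSG00000030246 spans 142490249 to 142507957 on chromosome 6 (minus strand). In PCM it had 12.7 to 15.3 FPKM with shNdufa5_1 and 15.3 to 19.96 FPKM in the libraries labelled shNdufa5_2, overlapping with shControl at 13.4 to 17.1 FPKM. In SCM it had 16.5 to 20.2 FPKM with shNdufa5_1 and 13.7 to 16.4 FPKM in the libraries labelled shNdufa5_2, against 16.7 to 20.7 FPKM in shControl. The libraries labelled shNdufa5_2 were thus all below shControl in SCM, with a limma adjusted p of 0.0684. With shNdufa5_1 in SCM the log2 difference was -0.04 (95% interval -0.28 to 0.20, limma adjusted p = 0.798), and it turned into 0.28 (adjusted p = 0.0423) with trends of GC content and length removed and 0.36 (adjusted p = 0.0329) with equal FPKM sums. With equal FPKM sums the median of all genes tested in this contrast was 0.34, near the value of Ldhb, and 6352 of 11084 genes were called higher.

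Counted over the 9 tested genes, shNdufa5_1 against shControl gave 6 calls in PCM (1 higher, 5 lower), where 52.7% of all 11084 genes tested were called (25.6% higher, 27.1% lower). It gave 7 calls in SCM (2 higher, 5 lower), where 59.8% were called (28.7% higher, 31.1% lower). The libraries labelled shNdufa5_2 gave 3 calls in PCM, all higher, where 35.6% of all genes were called (19.3% higher, 16.3% lower). In SCM they gave 3 calls (1 higher, 2 lower), where 33.9% were called (13.9% higher, 20% lower). With shNdufa5_1 lower calls were more frequent among the 9 genes than over all genes. With so many genes called, and 9 genes chosen with earlier results known, these counts say nothing particular of the set. The groups of libraries failed to overlap for 6 of the 9 tested genes with shNdufa5_1 in PCM, where they did so for 59.8% of all genes tested, and for 7 in SCM, where they did so for 65.1%. For the libraries labelled shNdufa5_2 they failed to overlap for 3 of 9 in PCM, beside 49.8% of all genes, and for 6 of 9 in SCM, beside 43.2%. Median log2 differences over the tested genes were -0.15 and -0.13 with shNdufa5_1, beside -0.01 and 0.00 over all genes tested. The direct contrast of shNdufa5_1 with the libraries labelled shNdufa5_2 gave 7 calls in PCM, where 62.9% of all genes were called (29.9% higher, 33% lower), and 5 in SCM, where 53.9% were called (26.5% higher, 27.3% lower). Cd38 was higher and Got1, Got2, Mdh1 and Nmnat3 were lower in both media, and Nadk and Ldhb were lower in PCM, where Nadk turned into 0.07 with equal FPKM sums and Ldhb into 0.01 with trends of GC content and length removed. Without any 1 of the 3 shNdufa5_1 libraries in SCM the count there was 3, and the call of Cd38 in SCM held in 9 of 26 alternatives.

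**Figure D2:**
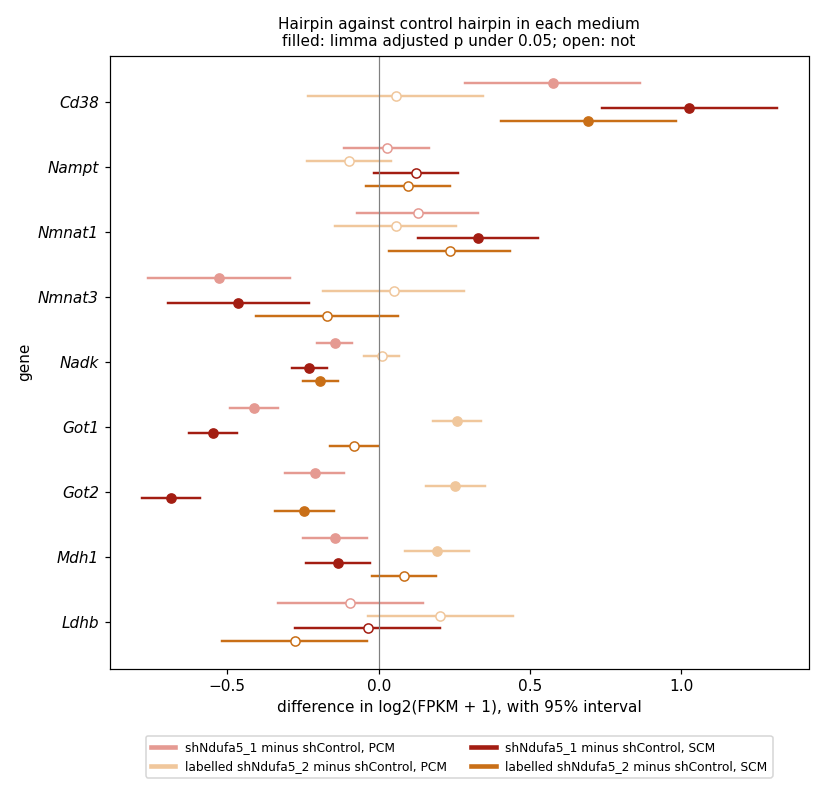
Difference in log2(FPKM + 1) (x axis) between each Ndufa5 hairpin and shControl, in PCM (pale) and SCM (dark), with 95% intervals, and filled points where limma's adjusted p is under 0.05. Cd38 is at 0.58 and 1.03 with shNdufa5_1, and Got2 at -0.21 and -0.69. For Nadk and Mdh1 the falls in SCM turn round under other scalings. With equal FPKM sums the median of all genes tested in SCM is 0.34 with shNdufa5_1.

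The medium was compared within each genotype, to see what the senescent cells' medium did to these genes and whether Ndufa5 bore on it. In shControl, libraries in SCM had more Got2, Got1, Ldhb and Mdh1 and less Nampt, 5 calls among the 9 tested genes, where 61.9% of all genes were called (31.7% higher, 30.2% lower). Got2 had 97.7, 95.7 and 93.1 FPKM in SCM, against 62.1, 65.1 and 63.6 FPKM in PCM. The groups were far apart, and the mean in SCM was 1.502 times that in PCM, a log2 difference of 0.58 ± 0.05 (limma adjusted p = 2.99e-08). Got1 had 191.8, 187.2 and 178.9 FPKM in SCM, against 143.3, 153.3 and 150.2 FPKM in PCM, 1.25 times as much (0.32 ± 0.04, limma adjusted p = 2.34e-06).

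These rises depend on the scaling between media. On the deposited scale the median log2 difference of all genes tested lay between -0.03 and 0.02 in the 11 contrasts. With equal fragment totals this median was -0.21 for SCM against PCM in shControl, and with equal FPKM sums -0.50. Gm23935, a gene of 57 bp, alone held 5.13 to 27.1% of the FPKM sums. Under both scalings Got2 and Got1 lay above this median. On the scale of equal fragment totals Got2 was 0.33 and Got1 0.07 (adjusted p = 0.11), with equal FPKM sums they were -0.02 and -0.29, and with quantile normalization 0.25 and -0.20. Among the other comparisons, equal fragment totals brought the median of all genes from -0.004 to 0.15 for shNdufa5_1 against shControl in SCM. For the difference between responses to SCM it went from -0.006 to 0.16 with shNdufa5_1. In the libraries labelled shNdufa5_2 that median went from -0.03 to 0.13.

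Nampt had 13.2, 12.9 and 12.4 FPKM in SCM, against 15.6, 15.6 and 14.9 FPKM in PCM in shControl, groups that did not overlap. The log2 difference was -0.25 ± 0.07 (limma adjusted p = 0.00419), and 0.06 once each library's trend with GC content and gene length was removed. Ldhb had 16.7, 18.9 and 20.7 FPKM in SCM, against 13.4, 14.7 and 17.1 FPKM in PCM, and the groups overlapped. Its difference of 0.30 ± 0.11 (limma adjusted p = 0.0282) was -0.02 with that trend removed and -0.27 with equal FPKM sums. The call of Ldhb was lost without replicate 1 (0.23, adjusted p = 0.126) or 2 (0.29, adjusted p = 0.0692) in PCM, and without replicate 2 (0.30, adjusted p = 0.0646) or 3 (0.23, adjusted p = 0.117) in SCM. Mdh1, at 42.5 to 46.9 FPKM in SCM and 40.4 to 42.6 FPKM in PCM, differed by 0.12 ± 0.05 (limma adjusted p = 0.0489), a call that held in 5 of the 18 fits without 1 library and turned into -0.08 with quantile normalization, -0.13 with equal fragment totals and -0.48 with equal FPKM sums. Cd38 was lower in SCM in every library (0.869 to 1.09 FPKM, against 1.29 to 1.53 FPKM in PCM), but its difference of -0.28 ± 0.14 did not pass (limma adjusted p = 0.0831). It passed in 6 of 27 alternatives: without shNdufa5_1 replicate 2 in PCM (-0.28, adjusted p = 0.0499), with a pseudocount of 0.1 (-0.49), equal FPKM sums (-0.60), equal fragment totals (-0.41), a replicate block (-0.28, adjusted p = 0.0427) and whole fragments (-0.55, adjusted p = 0.0435). The difference stayed negative in all 27 and was smallest, at -0.01, with trends of GC content and length removed.

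With shNdufa5_1, SCM against PCM gave 3 calls, all higher, where 42.3% of all genes were called (22.5% higher, 19.8% lower). Ldhb had 20.2, 16.5 and 18.2 FPKM in SCM, against 15.3, 12.7 and 14.1 FPKM in PCM, a log2 difference of 0.36 ± 0.11 (limma adjusted p = 0.0173). Its call was lost without replicate 2 in PCM (0.30, adjusted p = 0.0722) or replicate 1 in SCM (0.29, adjusted p = 0.0809), with equal FPKM sums (0.31, adjusted p = 0.115) and with trends of GC content and length removed (0.21, adjusted p = 0.164). Got1 had 127.3, 124.3 and 129.1 FPKM in SCM, against 112.6, 108.3 and 113.9 FPKM in PCM, a difference of 0.18 ± 0.04 (limma adjusted p = 0.00102). It was 0.13 (adjusted p = 0.275) with equal FPKM sums, 0.03 (adjusted p = 0.567) with quantile normalization and 0.06 (adjusted p = 0.189) with trends of GC content and length removed. Mdh1 differed by 0.13 ± 0.05 (limma adjusted p = 0.047), which held in few of the alternatives, 9 of 27, and without shNdufa5_1 replicate 1 in SCM 1 call was left of the 3. In the libraries labelled shNdufa5_2 the only call was Nadk, where 22.8% of all genes were called (11.7% higher, 11.1% lower). Nadk had 65.4, 65.3 and 65.8 FPKM in SCM, against 73.5, 73.3 and 74.5 FPKM in PCM, a difference of -0.17 ± 0.03 (limma adjusted p = 0.000404) that was -0.13 (adjusted p = 0.314) with equal FPKM sums. The count was 2 without replicate 1 in PCM or replicate 2 in SCM of these libraries, or without shNdufa5_1 replicate 2 in PCM.

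**Figure D3:**
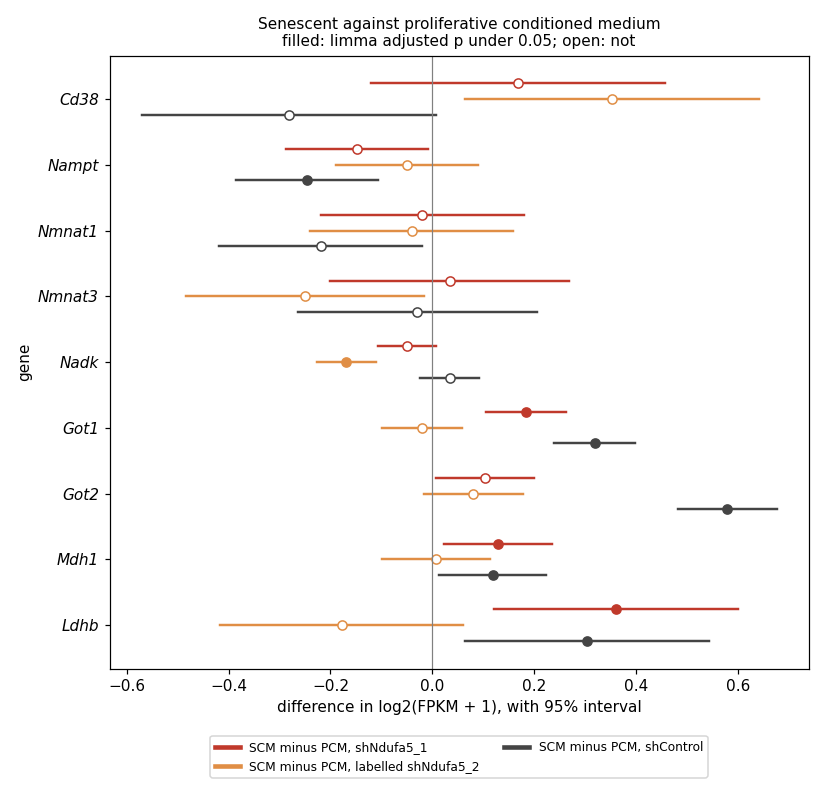
Difference in log2(FPKM + 1) (x axis) between SCM and PCM within shNdufa5_1, the libraries labelled shNdufa5_2 and shControl, with 95% intervals and filled points where limma's adjusted p is under 0.05. Got2 is at 0.10 with shNdufa5_1, against 0.58 in shControl. With equal FPKM sums the rise in shControl is -0.02, beside a median of -0.50 over all genes tested. The rises of Got1, Mdh1 and Ldhb in shControl turn round under at least 1 other setting, as does the fall of Nampt.

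The difference between responses was tested itself. The response of Got2 to SCM was smaller with shNdufa5_1 than in shControl, a difference of -0.48 ± 0.06 (limma adjusted p = 5.9e-05), the 1 call of 9 where 26.2% of all genes were called (10.7% higher, 15.5% lower). This became -0.28 with equal fragment totals, -0.24 with quantile normalization and 0.07 with equal FPKM sums. The median of all genes tested for this difference was 0.16 with equal fragment totals and 0.46 with equal FPKM sums. The count was 2 without shNdufa5_1 replicate 2 or 3 in PCM or shControl replicate 3 in SCM. Got1 differed by -0.13 ± 0.05 (limma adjusted p = 0.0715), and passed without shNdufa5_1 replicate 2 in PCM (-0.16, adjusted p = 0.0495) or shControl replicate 3 in SCM (-0.16, adjusted p = 0.0379). It turned into 0.07 with equal fragment totals, 0.23 with quantile normalization and 0.42 with equal FPKM sums. Cd38 responded more with shNdufa5_1 by 0.45 ± 0.19, which did not pass (limma adjusted p = 0.0981) but did in 4 of 27 alternatives: without shNdufa5_1 replicate 3 in PCM (0.58, adjusted p = 0.0322), with equal FPKM sums (0.73), with equal fragment totals (0.55) and with whole fragments (0.78). For the libraries labelled shNdufa5_2, 5 of 9 responses differed from that of shControl (1 higher, 4 lower), where 43% of all genes were called (18.9% higher, 24.1% lower).

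The other genes of NAD metabolism were taken from 6 lists of 85 genes, of which 63 were tested. With shNdufa5_1 in PCM 25 of the 63 were higher and 17 lower, and in SCM 23 were higher and 19 lower, beside 25.6% higher and 27.1% lower of all genes tested in PCM, and 28.7% and 31.1% in SCM. Between SCM and PCM in shControl 27 were higher and 12 lower, beside 31.7% and 30.2% of all genes. The counts by list below are read against the same shares and hold from 6 to 17 genes each. The median log2 differences were 0.10, 0.03 and 0.14 in these 3 comparisons, beside -0.01, 0.00 and 0.00 over all genes tested.

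Among the partners in the shuttle, 3 of 8 tested genes were lower and 2 higher with shNdufa5_1 in each medium. In PCM the libraries labelled shNdufa5_2 had 4 higher, Mdh2 and Slc25a11 among them, and 0 lower, beside 19.3% and 16.3% of all genes. In SCM these libraries had 1 higher and 3 lower, Mdh2 and Slc25a11 among the lower, beside 13.9% and 20% of all genes. Mdh2, the mitochondrial malate dehydrogenase, had 200.2 ± 4.76 FPKM with shNdufa5_1 in PCM, against 247.0 ± 4.10 FPKM in shControl, and 236.5 ± 4.08 FPKM in SCM, against 413.1 ± 11.2 FPKM (SD, n = 3 each). It fell by 0.30 and by 0.80 on the log2 scale (limma adjusted p = 4.52e-07 and 5.33e-12), calls that held in all 27 alternatives, with -0.30 in SCM under quantile normalization. Its response to SCM in shControl was 0.74, but 0.13 (adjusted p = 0.113) with equal FPKM sums and 0.06 (adjusted p = 0.0955) with quantile normalization. The response of shNdufa5_1 was smaller on the deposited scale, with a difference of -0.50 (limma adjusted p = 5.31e-07) that turned into 0.05 with equal FPKM sums and was -0.05 (adjusted p = 0.402) with quantile normalization. With equal FPKM sums the median of all genes tested was 0.46 for this difference between responses. Slc25a12, 1 of the mitochondrial aspartate-glutamate carriers, fell by 0.38 in PCM and by 0.45 in SCM (limma adjusted p = 0.000264 and 4.15e-05), the value in SCM being -0.06 (adjusted p = 0.645) with equal FPKM sums.

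Slc25a11, the oxoglutarate-malate carrier, fell by 0.27 and by 0.38 (limma adjusted p = 0.00104 and 3.61e-05), the value in SCM turning into 0.03 with equal FPKM sums. With trends of GC content and length removed Slc25a11 was at -0.13 (adjusted p = 0.0606) in PCM and -0.11 (adjusted p = 0.115) in SCM. Slc25a13, the second aspartate-glutamate carrier, went the other way, with 14.9 ± 0.833 FPKM with shNdufa5_1 in SCM, against 11.4 ± 2.28 FPKM in shControl, a difference of 0.38 (limma adjusted p = 0.004) that was 0.24 without shControl replicate 1. In PCM it was 15.1 ± 0.305 FPKM, against 12.6 ± 0.0555 FPKM, a difference of 0.25 (limma adjusted p = 0.0479) that passed in 10 of 27 alternatives and was lost without any 1 of these 6 libraries. Gpd2, the mitochondrial enzyme of the glycerol phosphate shuttle, had 22.8 ± 0.726 FPKM with shNdufa5_1 in PCM, against 23.5 ± 0.684 FPKM in shControl, and 22.6 ± 0.727 FPKM in SCM, against 23.5 ± 0.443 FPKM, and was not called.

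Of 17 tested genes of NAD use, 7 were lower and 4 higher with shNdufa5_1 in PCM, and 6 lower and 4 higher in SCM. Sirt3, the main NAD-dependent deacetylase of mitochondria, had 3.62 ± 0.224 FPKM with shNdufa5_1 in PCM, against 5.62 ± 0.163 FPKM in shControl, and 3.95 ± 0.14 FPKM in SCM, against 8.70 ± 0.878 FPKM. It fell by 0.52 and by 0.97 (limma adjusted p = 1.68e-05 and 1.2e-08) and held in all 27 alternatives in each medium. Sirt1, a nuclear deacetylase, was 0.807 ± 0.318 FPKM in SCM, against 2.16 ± 0.275 FPKM in PCM in shControl, a difference of -0.82 (limma adjusted p = 2.28e-05). The list of NAD synthesis, with 9 tested genes, also holds enzymes of nicotinamide and kynurenine turnover that do not make NAD. Of these Aox1, an aldehyde oxidase that acts on methylated nicotinamide, rose by 0.73 with shNdufa5_1 in PCM (limma adjusted p = 0.000294). Kyat1, a kynurenine aminotransferase, rose by 0.82 with SCM in shControl (limma adjusted p = 2.71e-05) and fell by 0.79 with shNdufa5_1 in SCM (limma adjusted p = 3.62e-05). With equal FPKM sums these were 0.27 (adjusted p = 0.0902) and -0.41 (adjusted p = 0.0171).

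Among 14 genes of NADP and NADPH, 9 were higher and 2 lower with shNdufa5_1 in PCM, and 8 higher and 4 lower in SCM. Mthfd1l, the mitochondrial formate-producing enzyme of folate metabolism, had 31.6 ± 1.52 FPKM with shNdufa5_1 in PCM, against 16.8 ± 1.06 FPKM in shControl (0.87, limma adjusted p = 1.5e-09). Naxe, the epimerase that repairs hydrated NADH and NADPH, fell by 0.38 in PCM and by 1.14 in SCM (limma adjusted p = 0.000286 and 1.73e-09), where it had 110.3 ± 3.64 FPKM, against 244.5 ± 21.6 FPKM in shControl. The calls of Naxe held in all 27 alternatives, at -0.24 in PCM with trends of GC content and length removed and at -0.70 in SCM with quantile normalization.

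Of 6 tested genes of lactate and pyruvate, 3 were higher and 1 lower with shNdufa5_1 in PCM, and 2 higher and 3 lower in SCM. Ldha, the partner of Ldhb that favours lactate production, had 273.2 ± 3.24 FPKM with shNdufa5_1 in SCM, against 234.1 ± 12.2 FPKM in shControl, and differed by 0.22 (limma adjusted p = 2.76e-05). In PCM its difference was 0.12 (limma adjusted p = 0.00493), turning into -0.01 with equal FPKM sums. Slc16a1, the proton-coupled lactate carrier, rose by 0.52 with shNdufa5_1 in SCM (limma adjusted p = 2.25e-09), and Bsg, the chaperone of such carriers, by 0.70 with SCM in shControl (limma adjusted p = 2.49e-10), where Bsg was at 0.09 (adjusted p = 0.258) with equal FPKM sums and 0.12 with quantile normalization. Of 9 genes of other NADH and NADPH oxidation, Aifm2, a quinone reductase, rose by 0.55 with shNdufa5_1 in PCM (limma adjusted p = 3.18e-05) and Cyb5r1, a cytochrome b5 reductase, fell by 0.55 in SCM (limma adjusted p = 3.04e-09), which was -0.13 (adjusted p = 0.101) with equal FPKM sums.

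**Figure D4:**
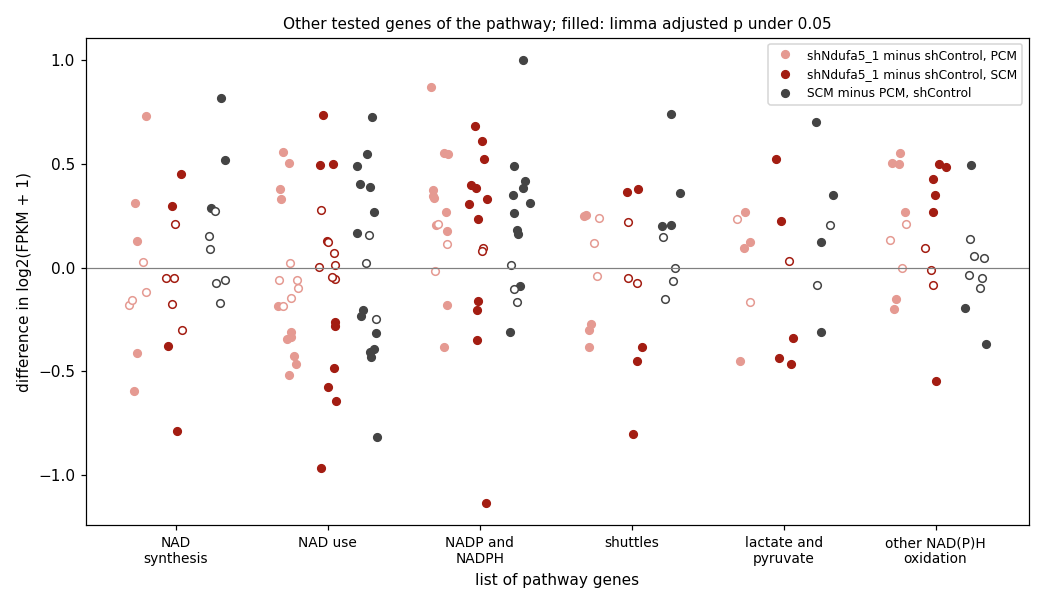
Differences in log2(FPKM + 1) (y axis) of the 63 other tested genes, by list (x axis), for shNdufa5_1 against shControl in PCM and in SCM and for SCM against PCM in shControl; each point is a gene, filled where limma's adjusted p is under 0.05. Points lie on both sides of 0 in every list; the lowest is Naxe at -1.14, and Mdh2 is lowest of the shuttle genes at -0.80.

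Over the 18 libraries the levels of Got1 and Got2 on the log2(FPKM + 1) scale correlated at a Pearson's r of 0.92, Got1 and Mdh1 at 0.87, and Cd38 and Nadk at -0.87. These are descriptions over 6 groups of 3 libraries, which share their groups and their scaling. Of all genes tested, those nearest to each gene were Chid1 for Got1 (0.99), Elob for Got2 (0.99), C77080 for Mdh1 (0.94) and Yrdc for Nadk (0.94). Gas2 was nearest to Cd38 (0.92), Nfkbib to Nmnat3 (0.90), Lrch3 to Nampt (0.89), Sptlc2 to Nmnat1 (0.84) and Gdf11 to Ldhb (0.81).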

How the data were processed

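The authors deposited FPKM values for 18 libraries in 1 table of 54532 genes. The tools STAR 2.6.1 and DESeq2 and 2 names of 1 mouse build (GRCm38, mm10) come from the submitters' processing notes, and the kit (NEBNext Ultra 2, after Trizol and a column with DNase) is given in the labels' protocols. The counter and its strand setting are not stated in these sources, so fragments of overlapping antisense genes cannot be told apart. With exon lengths from GENCODE vM21, 99.5 to 99.8% of low values (at most 20 fragments) were whole within 0.1 fragments, which gave the depth.

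Groups came from the titles. Values were tested as log2(FPKM + 1) with limma 3.58.1 in R 4.3.3, with 1 coefficient per group, all 18 libraries, no replicate block, a variance trend and two-sided tests. Benjamini-Hochberg adjustment ran over 11084 genes, those whose mean FPKM reached 1, and a call means an adjusted p under 0.05. There were 11 contrasts. The fit was tested on simulated data. It recovered 76% of changes of 0.5 and 90.5% of changes of 1 on the log2 scale, with 8 and 5 false calls. Smaller changes, such as many of those given here, were not simulated. Changes were placed in a small part of the genes, in shNdufa5_1 in PCM only, with independent noise. No shift shared by a library was simulated, so the false calls do not cover errors of scaling or contrasts in which many genes change. The 9 alternatives beside leaving out each library were a pseudocount of 0.1, no filter, 3 other scalings (equal FPKM sums, equal totals of recovered fragments, quantile normalization), removal of trends with GC content and length, a replicate block, voom on recovered fragments, and a fit without the libraries labelled shNdufa5_2. Those with recovered fragments and the fit without these libraries were added after seeing the data.

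The members, lists and tests were chosen with earlier results of these data known. Named genes are every member, Ndufa5, the 2 called genes of each list with the largest difference over 3 comparisons (SCM against PCM in shControl and shNdufa5_1 against shControl in each medium), listed partners of members, and for each tested member the gene with the highest correlation. Promoter sequences came from RefSeq, in which 9 of the 10 members had an entry. Figures were drawn with matplotlib.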

Additional observations from a re-analysis of the deposited data

Results flagged for a closer look

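Differences between responses to SCM, tested as interaction terms in limma over all genes, passed for 6 pairs of gene and hairpin. Got2 responded less with shNdufa5_1 than in shControl, with a difference of -0.48 (adjusted p = 5.9e-05). In the libraries labelled shNdufa5_2, the mean Ndufa5 level was 93.4% of shControl in PCM and 73.4% in SCM. Their response relative to that of shControl differed by 0.64 for Cd38 (adjusted p = 0.0144), -0.34 for Got1, -0.50 for Got2 (adjusted p = 2e-05), -0.48 for Ldhb (adjusted p = 0.0229) and -0.20 for Nadk. With equal FPKM sums the differences of Got1, Got2, Ldhb and Nadk turned into 0.31, 0.15, 0.13 and 0.44, and with quantile normalization those of Got1 and Nadk into 0.08 and 0.08. That of Got2 with shNdufa5_1 turned into 0.07 with equal FPKM sums. The median of all genes tested was 0.52 in the libraries labelled shNdufa5_2 and 0.46 with shNdufa5_1 under that scaling. Each value just given for equal FPKM sums lay below its median. Cd38 averaged 2.18 FPKM in SCM and 1.5 FPKM in PCM in these libraries, against 0.962 FPKM in SCM and 1.39 FPKM in PCM in shControl. Its difference between responses was 0.39 (adjusted p = 0.126) with the trend with GC content and length removed. The call of Ldhb was lost without shControl replicate 1 in PCM (-0.41, adjusted p = 0.0626) or replicate 3 in SCM (-0.41, adjusted p = 0.0596), and without replicate 3 in PCM (-0.39, adjusted p = 0.0641) or replicate 2 in SCM (-0.41, adjusted p = 0.0616) of the libraries labelled shNdufa5_2. The share of the FPKM sum held by Gm23935 was 7.45 to 12.9% in SCM and 16.1 to 18.9% in PCM in the libraries labelled shNdufa5_2, against 16.3 to 21.8% in SCM and 5.13 to 8.75% in PCM in shControl, and its part in these differences was not tested beyond the scalings given here.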

How the results depend on the processing

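Each difference of a named gene and each count of calls among the 9 tested genes was recomputed in up to 27 alternatives. Signed values are log2 differences, and the causes of the changes were not tested. With equal FPKM sums the difference between SCM and PCM in shControl turned into -0.29 for Got1, -0.024 for Got2, -0.27 for Ldhb and -0.48 for Mdh1. For shNdufa5_1 against shControl it turned into -0.006 for Ldha in PCM, and into 0.28 for Mdh1, 0.19 for Nadk, 0.027 for Slc25a11 and 0.36 for Ldhb in SCM. For the libraries labelled shNdufa5_2 it turned into -0.16 for Cd38, -0.10 for Got1, -0.10 for Got2 and -0.16 for Mdh1 in PCM, into 0.045 for Got2 and 0.10 for Nadk in SCM, and into 0.068 for Nadk where shNdufa5_1 was set against them in PCM. Differences between responses turned into 0.42 for Got1, 0.072 for Got2 and 0.053 for Mdh2 with shNdufa5_1, and 0.31 for Got1, 0.15 for Got2, 0.13 for Ldhb and 0.44 for Nadk in the libraries labelled shNdufa5_2.

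With equal fragment totals, Mdh1 turned into -0.13 for SCM in shControl and 0.052 for shNdufa5_1 in SCM, Ldhb into 0.14 for shNdufa5_1 in SCM, and the response of Got1 with shNdufa5_1 into 0.066. With quantile normalization, Got1 and Mdh1 turned into -0.20 and -0.084 for SCM in shControl, Mdh1, Nadk and Ldhb into 0.053, 0.023 and 0.045 for shNdufa5_1 in SCM, and Nadk into 0.006 between shNdufa5_1 and the libraries labelled shNdufa5_2 in PCM. The responses turned into 0.23 for Got1 with shNdufa5_1, and into 0.076 for Got1 and 0.081 for Nadk in the libraries labelled shNdufa5_2. With trends of GC content and length removed, Ldhb turned into -0.017 and Nampt into 0.064 for SCM in shControl, Ldhb into 0.005 between shNdufa5_1 and the libraries labelled shNdufa5_2 in PCM, and Ldhb and Nampt into 0.28 and -0.080 for shNdufa5_1 in SCM. Cd38 in the libraries labelled shNdufa5_2 in PCM was -0.072 without their replicate 1. Without each library in turn, Ldhb for shNdufa5_1 in SCM ran from -0.11 (without shControl replicate 1) to 0.033 (without shControl replicate 3), and it was 0.032 without shNdufa5_1 replicate 2.

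Calls over all genes changed with the setting too, and are given beside the counts. Of the counts, calls for SCM in shControl and for shNdufa5_1 against the libraries labelled shNdufa5_2 in SCM were 3 and 3 with no filter, instead of 5 and 5. With no filter 25842 genes were tested, with 3364 higher and 3181 lower in the first contrast and 2904 and 2876 in the second. Equal FPKM sums left 0 calls for SCM in shNdufa5_1 cells, and likewise 0 in the libraries labelled shNdufa5_2, instead of 3 and 1, and gave 8 differing responses of shNdufa5_1 instead of 1. Of all 11084 genes, 6988 responses of shNdufa5_1 were then higher and 85 lower, against 1186 and 1714 on the deposited scale. For SCM, 1212 genes were then higher and 1949 lower in shNdufa5_1 cells, and 694 and 231 in the libraries labelled shNdufa5_2. Equal fragment totals gave 6 calls for the libraries labelled shNdufa5_2 in SCM instead of 3, and 5 differing responses of shNdufa5_1. Of all 11084 genes, 2708 were higher and 1265 lower in the former, against 1545 and 2213 on the deposited scale. In the latter 3317 were higher and 769 lower. Quantile normalization gave 1 call for the libraries labelled shNdufa5_2 in PCM instead of 3, 3 differing responses of shNdufa5_1 and 3 instead of 5 of the libraries labelled shNdufa5_2. Over all genes it gave, in that order, 1649 higher and 1940 lower, 1424 and 988, and 2246 and 1729. Removal of GC and length trends gave 2 calls for SCM in the libraries labelled shNdufa5_2 and 1 differing response there, and voom gave 2 differing responses of shNdufa5_1. Over all genes these settings gave, in that order, 1237 higher and 1189 lower, 1209 and 1742, and 1508 and 1878. Without each library in turn the counts ran from 4 to 7 for SCM in shControl, 1 to 3 in shNdufa5_1 cells, 1 to 2 in the libraries labelled shNdufa5_2, and from 3 to 5 for shNdufa5_1 against the libraries labelled shNdufa5_2 in SCM. Differing responses ran from 1 to 2 for shNdufa5_1 and 4 to 6 for the libraries labelled shNdufa5_2.

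Same-numbered libraries of different groups did not deviate together (correlations of -0.09 to 0.07, 0 of 45 pairs over 0.1). Such correlations show no large shared shift, but cannot tell whether same-numbered libraries were prepared together. A replicate block gave 2 calls instead of 1 for SCM in the libraries labelled shNdufa5_2. Depth limits Nnt, with at most 15 fragments in a library.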
